A study of Mus musculus with 10 samples.

Results

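Regulatory T (Treg) cells restrain other immune cells through a small set of secreted and surface molecules, and the genes for 9 of these were examined in Treg cells with and without the kinase LKB1. They were Nt5e and Entpd1 (the ectoenzymes CD73 and CD39), Il10, Ebi3, Tgfb1 and its surface anchor Lrrc32 (GARP), Gzmb (granzyme B), Fgl2 and Areg (amphiregulin). They were chosen by name from a list of known effector molecules, and where several probe sets were assigned to one gene alone, that with the highest mean stood for it. Of the 9, 8 were measured, of 22180 genes in all. No probe set was assigned to Areg alone, so amphiregulin was not analysed here.

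The cells were sorted from mouse mixed bone marrow chimeras, in which hosts carry blood cells from donors of more than 1 genotype, and were lysed without culture. There were 5 wild type (WT) samples and 5 with Stk11 deletion, called LKB1-deficient in the labels, each on its own array. Stk11 encodes LKB1, an upstream kinase of AMPK and related kinases. The driver of the deletion, the deleted exons, the hosts, and the age and sex of the animals are not stated in the sources used here. The labels do not say whether samples of one group were taken from different animals, and p-values therefore describe the spread between these samples only. The question of the comparison is how loss of LKB1 alters the transcripts of Treg cells, here those of suppressor molecules.

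The molecules act in different ways. CD39 removes phosphates from extracellular ATP and ADP, and CD73 converts the resulting AMP to adenosine, which inhibits T cells through adenosine receptors. IL-10 is a cytokine that dampens myeloid and T cell activity, and Ebi3 pairs with the Il12a chain to form IL-35. TGF-beta1 is made in a latent form that GARP holds on the Treg cell surface until integrins release it. Granzyme B is a protease delivered to target cells with perforin, and Fgl2 is a secreted fibrinogen-like protein that acts through inhibitory Fc receptors.

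Values are log2 signals, on which a difference of 1 is a 2-fold change, and each difference is the LKB1-deficient mean less the WT mean, with the standard error (SE) of a limma model over all genes. The threshold was an adjusted p under 0.05 (Benjamini-Hochberg over all genes). Nt5e and Il10 fell by more than 2-fold in LKB1-deficient Treg cells, and the other 6 measured genes did not pass the test. The 2 of 8 that fell compare with 0.83% of all genes called lower, and 0 of 8 rose, against 0.234% called higher (1.06% in either direction), with 2 of the 8, both of them lower, at an unadjusted p under 0.05, a level that 8.8% of all genes reached as lower and 5.19% as higher. The median difference of the 8 was -0.12, beside 0.0034 over all genes.

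Sequences upstream of the genes of the 2 ectoenzymes of this pathway are shown for reference. A link of their letters to the differences in signal was not tested. They are RefSeq promoter windows of build GRCm38.p6, from 250 bases before to 50 after an annotated gene start, read 5′ to 3′ on the gene's strand. Of the 9 genes, 7 had an entry in the table used. Nt5e lies on the plus strand at chr9:88327359-88327658, and Entpd1 has windows on the plus strand at chr19:40612116-40612415 and chr19:40659520-40659819. Capitals mark the short cyclic AMP response element TGACG on either strand.
Nt5e: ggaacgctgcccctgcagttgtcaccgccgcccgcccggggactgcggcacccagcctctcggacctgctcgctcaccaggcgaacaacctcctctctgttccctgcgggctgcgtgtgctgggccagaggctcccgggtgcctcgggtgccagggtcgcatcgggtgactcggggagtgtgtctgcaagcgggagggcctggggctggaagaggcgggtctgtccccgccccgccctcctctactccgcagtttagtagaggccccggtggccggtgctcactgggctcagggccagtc
Entpd1, upstream start: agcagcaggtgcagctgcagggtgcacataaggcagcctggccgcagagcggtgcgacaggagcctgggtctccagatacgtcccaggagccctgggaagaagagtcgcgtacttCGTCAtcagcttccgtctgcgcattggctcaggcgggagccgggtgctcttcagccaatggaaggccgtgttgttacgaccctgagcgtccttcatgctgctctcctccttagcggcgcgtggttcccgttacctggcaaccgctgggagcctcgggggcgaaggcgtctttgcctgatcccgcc
Entpd1, downstream start: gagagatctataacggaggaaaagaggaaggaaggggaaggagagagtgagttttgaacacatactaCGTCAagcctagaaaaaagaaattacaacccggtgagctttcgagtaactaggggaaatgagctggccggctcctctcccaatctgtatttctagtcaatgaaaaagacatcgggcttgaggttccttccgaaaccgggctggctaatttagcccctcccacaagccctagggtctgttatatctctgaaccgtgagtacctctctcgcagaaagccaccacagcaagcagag
Each Entpd1 window held 1 match, at -135 and at -183 from its start, in the reverse orientation. The Nt5e window held none of the 5 sets of letters searched on both strands: the whole element TGACGTCA, its short form TGACG, the AP-1 letters TGANTCA, the forkhead letters TGTTTAC and the STAT letters TTCNNNGAA, where N is any base. The short form, which lies within the whole one, was found in 20.8% of the 32851 mouse windows of this length, and the whole form in 1.79%. AP-1 letters were in 7.81%, forkhead letters in 3.65% and STAT letters in 8.3%. The Gzmb and Fgl2 windows each held 1 AP-1 match, at -58 and -16, and 1 STAT match, at 38 and -36, and the Gzmb window also held the short cyclic AMP letters at 6. The whole element was found in the Areg window alone of the 7 genes, at -61, and the Ebi3 and Tgfb1 windows held none of the letters. Such matches describe the letters of a window and do not show binding.

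Stk11 itself was at 6.61, 6.69, 6.75, 6.95 and 6.92 on WT arrays 1 to 5 and at 6.57, 6.01, 6.05, 6.71 and 6.78 on LKB1-deficient arrays 1 to 5. Arrays 2 and 3 were clearly lower, array 1 was just below the WT range and arrays 4 and 5 were within it. The labels' running codes, described below, put replicates 1 to 3 and replicates 4 and 5 in separate series. Within each series every LKB1-deficient array was below every WT array, with differences of -0.47 and -0.19. Set against all 5 WT arrays together, the deleted gene was clearly lower on arrays 2 and 3 only. Whether its probe set covers the deleted exons is not given, and LKB1-deficient stands below for the label of a sample. The means were 6.78 ± 0.15 (SD, n = 5) on WT arrays and 6.42 ± 0.37 (SD, n = 5) on the arrays of the deletion group, short of the threshold in limma (adjusted p = 0.335). Treg and T cell genes were high on all arrays: Foxp3 was between 10.95 and 11.19 on WT arrays and Cd3e between 11.67 and 11.98 over both groups. They were not all alike between the groups. Of 7 Treg genes, Izumo1r alone was called lower in limma (-0.70, adjusted p = 0.0209), without overlap, where 0.83% of all genes were called lower. None of 9 T cell genes passed, but Cd3d (-0.21, adjusted p = 0.285) and Zap70 (-0.28, adjusted p = 0.188) were lower without overlap, as were 3.71% of all genes. Transcripts of other cells were raised in the deletion group, most on LKB1-deficient arrays 1, 4 and 5. The mean of 22 monocyte, macrophage and dendritic genes was 6.80, 8.36 and 8.46 there, 6.11 and 6.33 on arrays 2 and 3 of the same group, and 6.10 to 6.39 in WT samples. The mean of 14 B and plasma cell genes was 6.89, 6.48 and 6.61 there, 5.49 and 5.53 on arrays 2 and 3, and 5.34 to 5.66 in WT samples. LKB1-deficient array 1 also had the lowest mean of the 7 Treg genes, at 9.41 against 10.24 to 10.59 on the rest of its group and 10.38 to 10.45 on WT arrays, with Foxp3 at 9.86 against 11.10 to 11.50 in its group. Its mean of 7 conventional CD4 T cell genes was 9.67, against 8.91 to 9.03 on the other 9 arrays. Arrays 2 and 3 were not free of such signals. The mean of 2 CD8 T cell genes was 6.88 to 7.18 on all 5 LKB1-deficient arrays and 6.38 to 6.71 on WT arrays, and that of 7 erythroid and platelet genes was 5.22 to 6.03 and 4.90 to 5.11. Of the 2 CD8 T cell genes only Cd8a was raised. Cd8b1 was at 7.665 to 7.859 on LKB1-deficient arrays, inside its WT range of 7.5 to 8.051 (difference 0.08, limma adjusted p = 0.790). Cd8a (adjusted p = 0.0423), the NK cell gene Klrd1 (0.0170) and the platelet gene Gp9 (0.0204) were called higher in limma, with no overlap between the groups. Of all genes, 0.234% were called higher, and the share that was higher without overlap is not given here. The other 8 NK cell genes and the other 6 erythroid and platelet genes did not pass. The mean of the 9 NK cell genes was 4.225 and 4.306 on arrays 2 and 3, within the WT range of 4.17 to 4.36. None of the cell type lists in this paragraph shares a gene with the suppressor genes. On bulk samples, fewer cells of a type and less RNA per cell cannot be told apart.

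CD73 had the firmer of the 2 decreases. Nt5e (Entrez gene 23959, probe set 17520073) was at 9.20, 9.21, 9.64, 9.58 and 9.27 on WT arrays 1 to 5. On LKB1-deficient arrays 1 to 5 it was at 7.70, 8.53, 8.26, 8.64 and 8.26. Every LKB1-deficient array was thus below every WT array, with array 1 the lowest. The groups were at 9.38 ± 0.21 (SD, n = 5) and 8.28 ± 0.36 (SD, n = 5), a 2.15-fold decrease (log2 difference -1.10, SE 0.17, 95% confidence interval -1.47 to -0.74, limma adjusted p = 0.0129). Groups without overlap and lower in LKB1-deficient samples were found for 3.71% of all genes. Without LKB1-deficient array 1, which had the lowest mean of Treg genes, the difference was -0.96 (adjusted p = 0.0044). It was -0.99 (adjusted p = 0.0157) without arrays 1, 4 and 5. Of the 10 fits that each left out 1 array, 9 kept the call, and without WT array 4 the adjusted p was 0.0536. The labels' running codes put replicates 1 to 3 of both groups in one series (set 1) and replicates 4 and 5 in another (set 2). The meaning of these codes is not given, and the difference was -1.19 within set 1 and -0.98 within set 2.

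CD39, which acts before CD73 in the same pathway, did not show this decrease. Entpd1 (Entrez gene 12495) was at 6.89, 6.79, 7.30, 7.29 and 7.20 on WT arrays and at 6.33, 6.82, 6.74, 7.64 and 7.71 on LKB1-deficient arrays. Arrays 4 and 5 were above all WT arrays, arrays 1 and 3 were below them and array 2 was within their range. The difference was -0.05 (SE 0.24, 95% confidence interval -0.57 to 0.48, limma adjusted p = 0.958), an interval that reaches from a 1.49-fold decrease to a 1.40-fold increase. Arrays 4 and 5 were also the highest in genes of macrophages and dendritic cells, which carry CD39 too, and the part of these transcripts in the Entpd1 signal was not tested. Within set 1 the difference was -0.36 and within set 2 it was 0.43, and the change between the sets did not pass (limma adjusted p = 0.372). In the fit without arrays 1, 4 and 5 the difference was -0.31 and stayed short of the threshold (adjusted p = 0.412).

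Nt5e and Entpd1 changed unequally. Within each array, Nt5e minus Entpd1 was between 2.06 and 2.42 in WT and between 0.56 and 1.71 in LKB1-deficient samples, so that the groups did not overlap. The change of -1.06 had an exact permutation p of 0.0079 (two-sided, 252 splits, the smallest possible), or 0.0119 adjusted over the 3 pairs of genes compared this way. It compares changes, not levels of the 2 transcripts. Arrays 4 and 5, where Entpd1 was high, enlarge it: over WT and LKB1-deficient arrays 2 and 3 alone it was -0.67 (adjusted exact p = 0.0714, raw p = 0.0476, the smallest that 5 against 2 arrays allow).

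**Figure D1:**
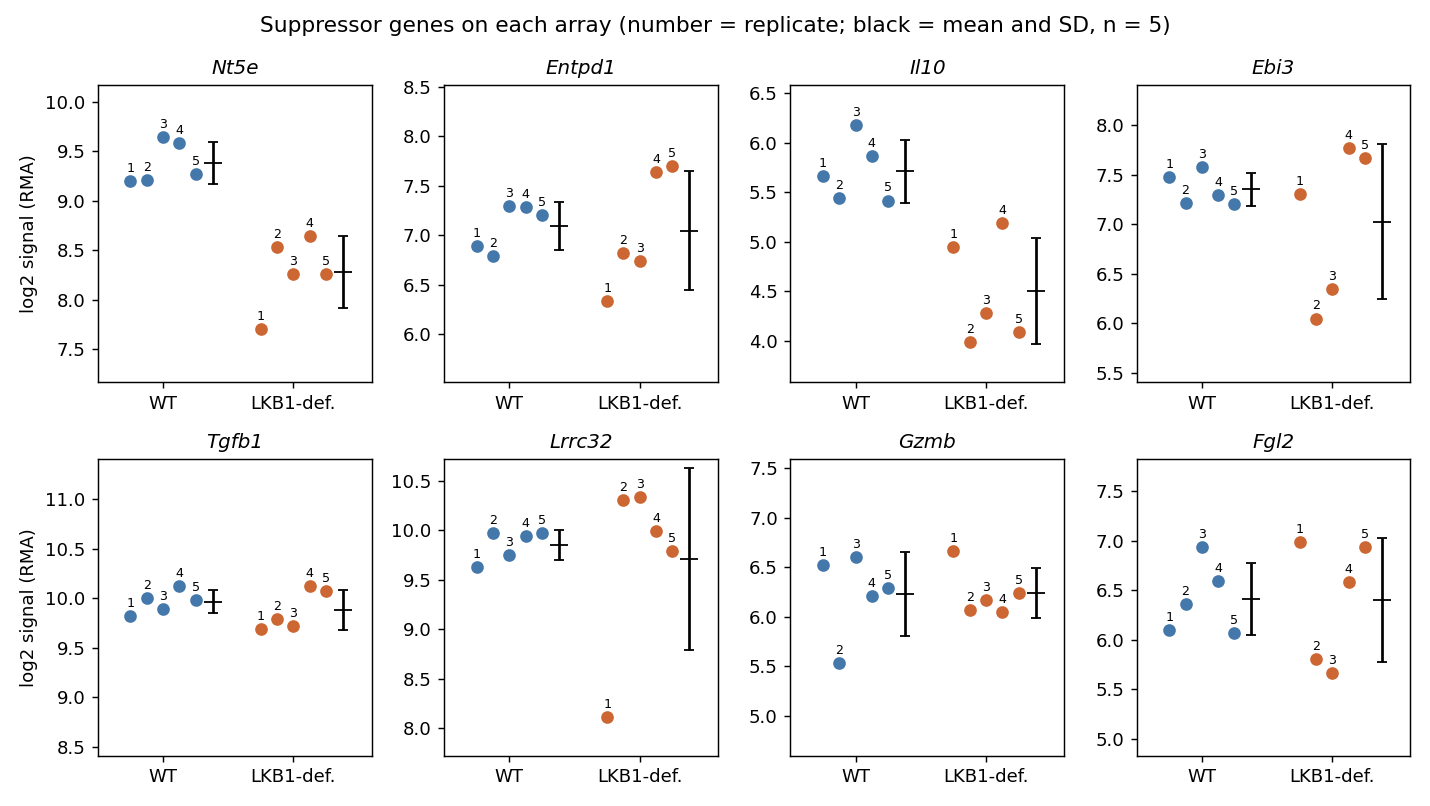
Log2 signal of the 8 measured suppressor genes on each array, WT in blue and LKB1-deficient (LKB1-def.) in orange, with the replicate number above each point and the group mean and SD (n = 5) in black; every panel spans the same range. For Nt5e and Il10 every orange point lies below every blue one, while Ebi3, Fgl2, Entpd1 and Lrrc32 are spread widely among the LKB1-deficient arrays.

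Il10 fell as well, with a wider error than Nt5e. Il10 (Entrez gene 16153, probe set 17216990) was at 5.66, 5.44, 6.18, 5.86 and 5.42 on WT arrays 1 to 5. On LKB1-deficient arrays it was at 4.94, 3.99, 4.28, 5.19 and 4.09, all below the WT range. The means were 5.71 ± 0.32 (SD, n = 5) and 4.50 ± 0.54 (SD, n = 5), a 2.32-fold decrease (log2 difference -1.21, SE 0.23, 95% confidence interval -1.72 to -0.70, limma adjusted p = 0.0335). LKB1-deficient arrays 2, 3 and 5 were below their array's median over all probe sets, which was 4.88 to 4.94 in that group. At such signals a transcript cannot be told from background, since the deposited table has no detection calls.

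The call of Il10 was not firm to the loss of 1 array. It held in 2 of the 10 fits that left out 1 array, those without LKB1-deficient array 1 (adjusted p = 0.0170) and array 4, and its adjusted p reached 0.101 without WT array 3. The difference itself stayed between -1.39 and -1.09 in these 10 fits. LKB1-deficient arrays 1 and 4, which had raised B and plasma cell genes, had the highest Il10 of their group, whereas array 5, with B and plasma cell genes raised as much, had the second lowest. The part of these cells was not tested. The fit without arrays 1, 4 and 5 gave -1.58 (adjusted p = 0.0074), and a larger decrease had to follow from dropping arrays 1 and 4, the highest of the group. Within set 1 it was -1.36 and within set 2 -1.0.

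Ebi3 split the LKB1-deficient arrays in 2. It was at 7.48, 7.22, 7.58, 7.30 and 7.21 on WT arrays. On LKB1-deficient arrays it was at 7.30, 6.05, 6.35, 7.77 and 7.67, so that arrays 2 and 3 were well below the lowest WT array, array 1 was within the WT range and arrays 4 and 5 were above it. The SD was 0.17 in WT and 0.78 in LKB1-deficient samples, 4.72 times as large. With all arrays the difference was -0.33 (SE 0.30, 95% confidence interval -0.97 to 0.32, limma adjusted p = 0.678).

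The arrays with high Ebi3 were those with raised transcripts of B cells and macrophages, which can make Ebi3 when activated. The difference in Ebi3 was -1.16 (adjusted p = 0.0069) without arrays 1, 4 and 5. It was -1.14 (adjusted p = 0.0020) in a fit that also held each array's mean of the macrophage genes and of the B cell genes. A larger decrease had to follow in the first fit, since it drops the 3 highest arrays of the group, and the means in the second were highest on these arrays. Both fits were chosen with earlier results known. Within set 1 the difference was -0.86 and within set 2 it was 0.47, and the change of 1.33 (SE 0.41) between the sets had a limma adjusted p of 0.30 (unadjusted p = 0.0080). A second probe set of Ebi3 had 6.46 and 6.98 on LKB1-deficient arrays 2 and 3, 7.31 on array 1 and 7.58 and 7.14 on arrays 4 and 5. On it arrays 2 and 3 were again the lowest of the group, but array 3 lay within the WT range of 6.91 to 7.55, and its difference was -0.08 (SE 0.20). The part of other cells' transcripts in these values was not tested.

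Il10 fell more than Ebi3 when all arrays were used. Il10 minus Ebi3 was between -1.81 and -1.41 on WT arrays and between -3.58 and -2.06 on LKB1-deficient arrays, a change of -0.88 (exact permutation p = 0.0079, two-sided, adjusted p = 0.0119 over 3 pairs). Leaving out arrays 1, 4 and 5, where Ebi3 was high, gave a change of -0.42 (adjusted exact p = 0.0952). Il12a, the partner chain of Ebi3, named here after its values were seen, was at 4.36 in both groups, below all array medians on average, with a difference of -0.0033 (adjusted p = 0.995).

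Fgl2 varied between arrays much as Ebi3 did. It was at 6.10, 6.36, 6.93, 6.59 and 6.07 on WT arrays and at 6.99, 5.80, 5.67, 6.59 and 6.94 on LKB1-deficient arrays. Arrays 2 and 3 were below all WT arrays, array 4 was within the WT range, and arrays 1 and 5 were just above it. The groups were centred alike, with a difference of -0.01 (SE 0.27, 95% confidence interval -0.60 to 0.57, limma adjusted p = 0.990). It was -0.67 without arrays 1, 4 and 5 and did not pass either (adjusted p = 0.178). Macrophages express Fgl2 as well, and their genes were highest on arrays 1, 4 and 5, as given above, with their part in the Fgl2 signal not tested.

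**Figure D2:**
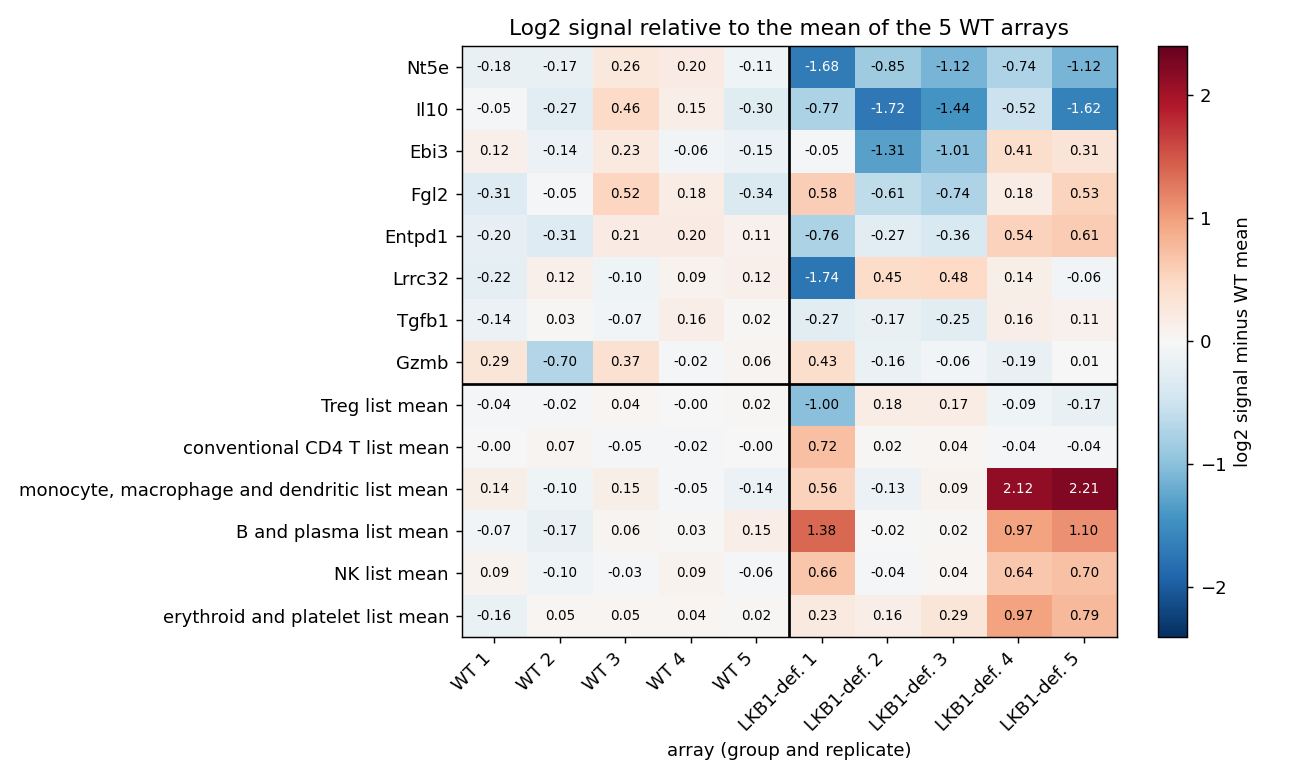
Log2 signal on each of the 10 arrays minus the mean of the 5 WT arrays, for the 8 suppressor genes (upper rows) and for the means of 6 cell type marker lists (lower rows); red is above and blue below the WT mean. Nt5e and Il10 are blue on all 5 LKB1-deficient arrays, Ebi3 and Fgl2 are blue on arrays 2 and 3, and the macrophage and B cell lists are red on arrays 1, 4 and 5.

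TGF-beta1 and its anchor GARP did not pass. Tgfb1 was at 9.82, 10.0, 9.89, 10.13 and 9.99 on WT arrays and at 9.69, 9.79, 9.72, 10.12 and 10.07 on LKB1-deficient arrays. The difference was -0.09 (SE 0.11, 95% confidence interval -0.33 to 0.15, adjusted p = 0.782), the narrowest interval of the 8, which reaches a 1.25-fold decrease. Lrrc32 was at 9.64, 9.97, 9.75, 9.94 and 9.97 on WT arrays. On LKB1-deficient arrays it was at 8.11, 10.30, 10.34, 9.99 and 9.79, so that array 1 stood far below all others and arrays 2, 3 and 4 were above every WT array.

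The low Lrrc32 value fell on the array with the lowest Foxp3. The difference was -0.15 (SE 0.34, limma adjusted p = 0.899) with all arrays and 0.25 (adjusted p = 0.383) without LKB1-deficient array 1. A higher estimate had to follow from dropping the lowest array. It was 0.47 (adjusted p = 0.108) without arrays 1, 4 and 5, opposite in sign to Nt5e, Il10 and Ebi3 in the same fit. Lrrc32 and Tgfb1 were not shown to change unequally (change of -0.06, exact permutation p = 0.873), though the spread of Lrrc32 minus Tgfb1, -1.58 to 0.62 in LKB1-deficient against -0.19 to -0.016 in WT samples, limits that test.

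Granzyme B showed no difference beyond its spread. Gzmb was at 6.52, 5.53, 6.61, 6.22 and 6.30 on WT arrays and at 6.66, 6.07, 6.18, 6.05 and 6.24 on LKB1-deficient arrays. WT array 2 was the lowest of all 10 and LKB1-deficient array 1 the highest. The difference was 0.0051 (SE 0.19, 95% confidence interval -0.41 to 0.42, limma adjusted p = 0.994). Of the 8 genes it alone had a smaller SD in LKB1-deficient than in WT samples, 0.25 against 0.42. The SD was larger in LKB1-deficient samples for the other 7, as it was for 68.8% of all genes, and the ratio reached 6.04 for Lrrc32.

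**Figure D3:**
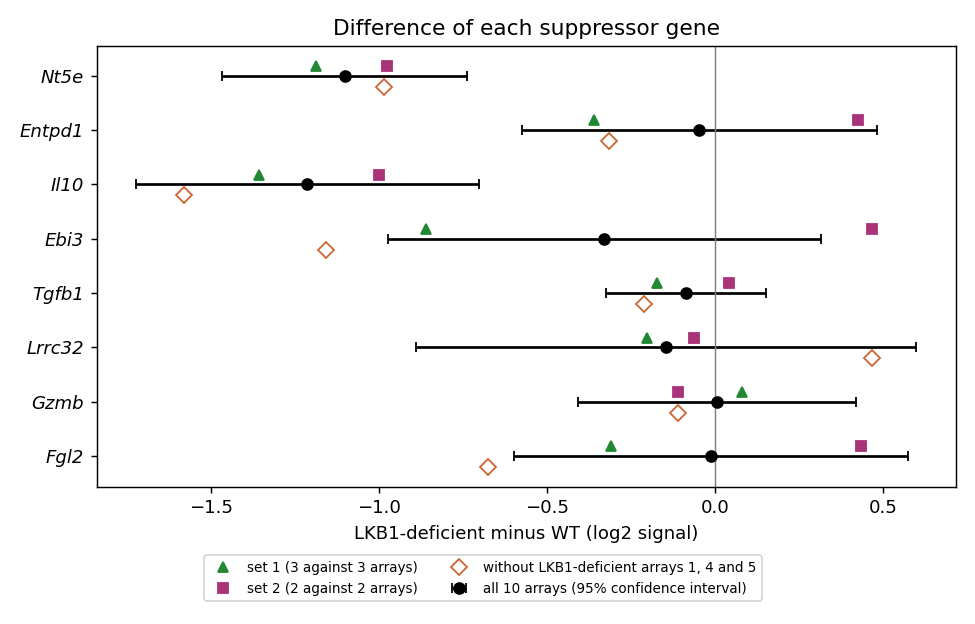
Difference of each suppressor gene, the LKB1-deficient less the WT mean of log2 signals, with the 95% confidence interval over all 10 arrays (black), within set 1 (triangles), within set 2 (squares) and without LKB1-deficient arrays 1, 4 and 5 (diamonds). Nt5e and Il10 are near -1 or below in all 4, whereas Entpd1, Ebi3 and Fgl2 are negative within set 1 and positive within set 2.

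The 2 genes that fell were compared with all others by the shape of their profile over the 10 arrays, as the root mean square distance between profiles centred on their means. Nearest to Nt5e were Nrp1 (distance 0.145), which encodes the neuropilin-1 receptor found on many Treg cells, Ptger2 (0.155), a prostaglandin E2 receptor, and 6330403K07Rik (0.196), against a median of 0.642 over all genes. Their differences were -1.27, -1.18 and -1.01. Nearest to Il10 were Rilpl2 (0.277), B4galnt4 (0.286) and Osbpl3 (0.293), against a median of 0.748, with differences of -0.88, -1.02 and -0.72. The list for Il10 was thus less close than that for Nt5e, and the distances are descriptions that include the difference between the groups.

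Genes that work with the suppressor molecules were examined in 6 lists of partners with 112 measured genes. Of these 1 rose and 3 fell, where 0.234% and 0.83% of all genes were called higher and lower. At an unadjusted p under 0.05, 7 were higher and 21 lower, against 5.19% and 8.8% of all genes, and the median difference was 0.0052. Without LKB1-deficient arrays 1, 4 and 5, 2 rose and 9 fell, where 0.694% and 0.915% of all genes were called higher and lower in that fit. The lists were drawn up with earlier results of these data known.

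In adenosine and nucleotide handling none of 17 measured genes passed in limma, with 1 higher and 3 lower at an unadjusted p under 0.05 (5.19% and 8.8% of all genes) and a median of -0.03. The smallest p belonged to Entpd5, an intracellular nucleotidase of the CD39 family (-0.36, adjusted p = 0.135), and Slc29a1, a nucleoside transporter (-0.38, adjusted p = 0.173). The adenosine receptor genes Adora1, Adora2a and Adora2b had no probe set of their own and were not analysed here.

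Among 19 chains, receptors and regulators of IL-10 and IL-35, 1 rose, where 0.234% of all genes were called higher. Il12rb2, a receptor chain shared by IL-12 and IL-35, was between 4.57 and 5.39 on WT arrays and between 5.52 and 6.54 on LKB1-deficient arrays. Its increase of 1.06 on the log2 scale (SE 0.20, limma adjusted p = 0.0315) held in 1 of the 10 leave-one-out fits, that without LKB1-deficient array 1, with an adjusted p of up to 0.0828 without WT array 3. Leaving out arrays 1, 4 and 5 gave 1.21 (adjusted p = 0.0213). In that fit 3 genes of the list fell, where 0.915% of all genes were called lower. They were Maf (-1.88, limma adjusted p = 0.0141), Nfil3 (-0.89, adjusted p = 0.0196) and Il10ra (-0.67, adjusted p = 0.0266).

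None of 17 genes of TGF-beta storage, activation and reception passed in limma, with 2 higher and 1 lower at an unadjusted p under 0.05 (5.19% and 8.8% of all genes). Itgb8, the integrin chain that releases TGF-beta from GARP on Treg cells, was between 7.61 and 8.09 on WT arrays and between 6.0 and 7.52 on LKB1-deficient arrays. The groups did not overlap, as for the 3.71% of all genes that were lower without overlap, but the difference of -0.74 (SE 0.24) had an adjusted p of 0.173. Tgfbr3, a TGF-beta co-receptor, was at 0.44 (adjusted p = 0.142).

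Of 20 genes of granzymes and granule killing, 1 fell, where 0.83% of all genes were called lower. Nkg7, a granule membrane protein of cytotoxic cells, was between 8.96 and 9.30 on WT arrays and between 7.74 and 8.62 on LKB1-deficient arrays, with a difference of -0.84 (SE 0.15, limma adjusted p = 0.0236). The call held in 5 of the 10 leave-one-out fits, with an adjusted p of up to 0.0823 without WT array 3, and the difference was -1.17 (adjusted p = 0.0069) without arrays 1, 4 and 5. Stx11, another gene of the list, also fell in that last fit (-0.63, limma adjusted p = 0.0299). Prf1, perforin, named here after its values were seen, was at 0.56 with an adjusted p of 0.152. The mean of 9 NK cell genes was 4.17 to 4.36 in WT samples and 4.91 to 4.97 on arrays 1, 4 and 5 of the deletion group. Cd8a, but not Cd8b1, was raised on all 5 arrays of that group, as given above. The part of NK and CD8 T cells in the granule genes was not tested.

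No gene passed among 16 other soluble and contact suppressors in limma, with 1 higher and 4 lower at an unadjusted p under 0.05 (5.19% and 8.8% of all genes). Fcgr2b, an inhibitory Fc receptor that binds Fgl2, was at 0.50 (adjusted p = 0.149), and Tigit, a checkpoint receptor, at -1.46 (adjusted p = 0.171). Without arrays 1, 4 and 5, 2 of the 16 fell, where 0.915% of all genes were called lower in that fit. They were Tigit (-2.50, limma adjusted p = 0.0141) and Lag3, another checkpoint receptor (-1.33, adjusted p = 0.0068).

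Areg was not measured, but 2 of 23 genes of the EGF family and of tissue repair Treg cells fell, both of them transcription factors of effector Treg cells. Of all genes, 0.83% were called lower. Batf was between 7.87 and 8.22 on WT arrays and between 6.96 and 7.47 on LKB1-deficient arrays, a difference of -0.87 (SE 0.11, limma adjusted p = 0.0074) that passed in all 10 leave-one-out fits. Irf4 fell by 0.74 on the log2 scale (SE 0.15, adjusted p = 0.0442) and passed in 1 of the 10, that without LKB1-deficient array 1, with an adjusted p of up to 0.130 without WT array 3. In the fit without arrays 1, 4 and 5, 1 gene of the list rose and 2 fell, against 0.694% and 0.915% of all genes. Gata3 rose (0.59, limma adjusted p = 0.0213), while Klrg1 (-1.31, adjusted p = 0.0124) and Batf (-0.91, adjusted p = 0.0077) fell. Irf4 did not pass there (-0.74, adjusted p = 0.0513). With all arrays the median of the list was 0.04, with 16 of 23 estimates positive.

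**Figure D4:**
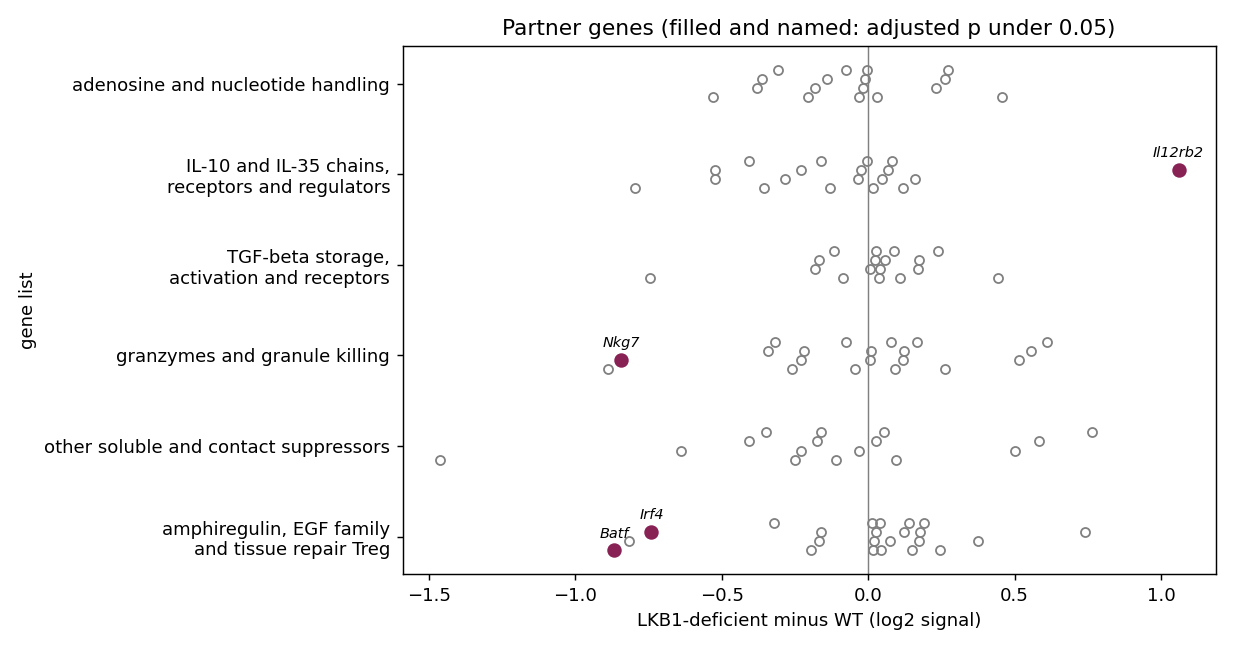
Difference of each measured partner gene, the LKB1-deficient less the WT mean of log2 signals, in 6 gene lists; filled points with names are the 4 genes at an adjusted p under 0.05. Il12rb2 is the only filled point above 0, and Nkg7, Batf and Irf4 lie below it.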

How the data were processed

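Single-channel arrays with 41345 probe sets measured 10 samples. Per the labels' protocols, RNA was isolated with the Qiagen RNeasy Micro kit, and a few nanograms were amplified by NuGEN WTA Pico v2 and biotinylated. The values the authors deposited are log2 signals. Per the submitters' processing notes they come from RMA and Partek 6.6, with no order or settings given in the sources used here. RMA gives all arrays nearly one distribution, so that a shift common to all genes would be lost, and amplification can distort levels. The number of arrays limits the precision.

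Of the probe sets, 23521 name 1 gene by the platform annotation, 1814 name several and 16010 none. Groups came from the sample titles and were compared with limma 3.58.1 (R 4.3.3), lmFit and eBayes, without covariates or a filter, and Benjamini-Hochberg adjustment over 22180 genes. The 3 pairs of genes in the text were compared by exact permutation of the 10 arrays. The code was tested on simulated data. Members, lists, named genes and alternatives were chosen with earlier results of these data known. Named were the 8 measured members, Stk11, the called genes of each partner list or else the 2 with the smallest p, markers, and the 3 genes closest to each called member. The labels state no pairing, and whether same-numbered samples came from one host is not given. The correlation of same-numbered deviations was -0.08 to 0.10, which cannot settle this, and the main fit used no pairing. Alternatives were other choices of probe set, filter, scaling, prior, weights, blocks and arrays.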

Additional observations from a re-analysis of the deposited data

Results flagged for a closer look

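Among 50 groups of 5 arrays examined (the 8 measured suppressor genes, Stk11 and 16 list means in each genotype), 3 held an array that lay far from the other 4 by Dixon's criterion, and chance alone marks about 1 in 20 groups. Lrrc32 was at 8.11 on LKB1-deficient array 1, against 9.80 to 10.34 on the other 4. The mean of the conventional CD4 T cell genes was 9.67 on the same array, against 8.92 to 9.0 on the other 4. The mean of the erythroid and platelet genes was 4.90 on WT array 1, against 5.08 to 5.11 on the other 4 WT arrays.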

How the results depend on the processing

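Nt5e was lower in LKB1-deficient samples under all 24 alternatives and past the threshold in 20, and Il10 was lower under all 24 and past it in 12. Ebi3 passed in 2 of 24, and the other 5 measured genes in none. Leaving out 1 array at a time gave 8 to 180 genes higher, 30 to 340 lower and 0 to 2 suppressor genes lower, with none left without WT array 4. It moved Entpd1 between -0.21 and 0.13, Lrrc32 between -0.30 and 0.25, Gzmb between -0.17 and 0.10, Fgl2 between -0.16 and 0.17, Ebi3 between -0.515 and -0.085, Tgfb1 between -0.148 and -0.04, and Lrrc32 minus Tgfb1 between -0.26 and 0.29. Over all genes, 52 were called higher and 184 lower. This became 72 and 284 without the dimmest 40% of genes, 52 and 363 with array medians subtracted (Gzmb -0.045), and 67 and 103 after a second quantile normalization (Entpd1 0.020, Fgl2 0.043). A trended robust prior gave 79 and 307, and array quality weights 135 and 329 (Entpd1 0.037, Lrrc32 0.11, Gzmb -0.10). Without moderation of the variances 17 were higher and 132 lower, with 0 suppressor genes called in limma (Nt5e adjusted p = 0.0533, Il10 adjusted p = 0.116, 2 of 8 at an unadjusted p under 0.05). With every probe set tested on its own it was 21 and 69, with 1 suppressor gene lower (Il10 adjusted p = 0.0863). The replicate block gave 14 and 36 and kept Nt5e (adjusted p = 0.0315) and Il10 (adjusted p = 0.0487). Whether replicate numbers pair samples is not given. Set 1 alone gave 0 higher and 0 lower in limma, with 2247 genes at an unadjusted p under 0.05, 0 suppressor genes (3 of 8 unadjusted), and changes of -0.82 in Nt5e minus Entpd1 and -0.50 in Il10 minus Ebi3 (adjusted exact p = 0.15 for both, the smallest raw p being 0.10). Set 2 alone gave 423 and 46, 0 suppressor genes (4 of 8 unadjusted), Entpd1 0.43, Ebi3 0.47, Tgfb1 0.040, Gzmb -0.11, Fgl2 0.43, and changes of -1.40 and -1.47 in the same pairs (adjusted exact p = 0.5, the smallest raw p being 0.333). Without LKB1-deficient arrays 1, 4 and 5, an alternative chosen after seeing the data, 154 were higher and 203 lower, with 3 suppressor genes lower, Lrrc32 0.47, Gzmb -0.11, and changes of -0.67, -0.42 and, in Lrrc32 minus Tgfb1, 0.68 (adjusted exact p = 0.0714, 0.0952 and 0.0714, the smallest raw p being 0.0476). The marker means as covariates, also chosen after seeing the data, gave 125 and 192, with 3 suppressor genes lower, Lrrc32 0.46 and Gzmb -0.17. The cause of these changes was not tested, beyond the fewer arrays in the smaller fits. Signals near the array median, as for Il10, limit how low a value can be read.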
